A study of Mus musculus with 12 samples.

Results

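This account covers 41 genes of the lysosome, followed across resting and tumour-challenged peritoneal macrophages with and without Tim4. They are a list of gene symbols grouped by function, drawn up with earlier results of these data known, and no measured value enters the rule: 16 subunits of the proton pump and 25 genes for hydrolases, lumenal cofactors, membrane proteins and transcription factors. All 41 were matched among the 57010 genes of the deposited count table by Ensembl identifier, and 40 of them were among the 15943 genes with enough counts to test. The gene left untested was Atp6v0d2, a tissue-restricted form of the pump's d subunit, which had between 0 and 17 counts in any library.

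The cells were large peritoneal macrophages, which reside in the peritoneal cavity, sorted as F4/80 high and MHC class II low from female mice. Wild-type (WT) mice and mice lacking Tim4 (Tim4KO), a scavenger receptor encoded by Timd4, were either naive or had received an intraperitoneal injection of ID8ZGO cells 24 h earlier, at 8 weeks of age. ID8 is a mouse ovarian tumour line, and the cells injected carried ovalbumin and the fluorescent protein ZsGreen. The 4 groups, naive (WT naive, Tim4KO naive) and challenged (WT ID8, Tim4KO ID8), held 3 libraries each, and the labels do not say whether a library was 1 mouse or a pool. From injected mice only ZsGreen-positive macrophages were taken, whereas naive cells had no such selection, so challenge and uptake of tumour material cannot be told apart. The study asked how uptake of tumour material alters macrophage transcription and how far Tim4 matters for it. P-values measure the spread between these libraries, which may be technical.

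A lysosome is an acidic organelle in which engulfed and worn-out material is broken down. The vacuolar ATPase holds its lumen acidic: the cytosolic V1 sector hydrolyses ATP and turns a rotor, and the membrane-embedded V0 sector carries protons across as the rotor turns. The acid activates hydrolases for sugars, lipids, proteins and nucleic acids, heavily glycosylated membrane proteins line the boundary, and the transcription factors TFEB and TFE3 bind an E-box element in the promoters of many of these genes. In a macrophage this system is the end point of phagocytosis.

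Library totals ran from 7358559 to 23170244 counts, with 1.32% to 1.55% of each in the 41 genes. Levels are given as CPM, a count scaled to a fixed library total after TMM normalization, and the lowest level told from 0, 3 counts, was 0.129 to 0.408 CPM. Timd4 matched the genotype labels, at 1167 to 1481 CPM in WT naive and 882 to 1450 CPM in WT ID8 against 1.38 to 7.68 CPM in the Tim4KO libraries. The 12 markers of large peritoneal macrophages were all detected in every library. Their sum was lower after challenge, at 22120 to 27325 CPM in naive and 19011 to 21854 CPM in challenged WT cells, and at 24042 to 28238 CPM and 22519 to 23277 CPM in Tim4KO cells. Reads in olfactory and vomeronasal receptor genes, which serve as a measure of background, differed between libraries: they were lowest in WT ID8 3 (5.57 CPM), reached 39.5 to 353 CPM elsewhere after challenge and were at 264 to 862 CPM in naive cells.

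E-box elements were looked up in the promoters of the 41 genes, since Tfeb and Tfe3, which encode some of the factors that read them, are members. RefSeq promoter sequences of mouse build GRCm38.p6, each running from 250 bases before to 50 bases after an annotated start, were found for 35 of the 41 genes (42 promoters). Asah1, Atp6v0d2, Atp6v1b2, Atp6v1c1, Atp6v1g1 and Atp6v1h had no entry. The core searched was CACGTG, which reads the same on both strands. It was present in 11 of the 42 promoters (26.2%, exact 95% binomial interval 13.9% to 42.0%), beside 2349 of all 32851 promoters in the same table (7.15%) and 9.45% of the promoters of tested genes. The interval treats promoters as separate random draws, although some genes have several and the list was chosen, so it tests no enrichment. The longer form TCACGTGA, which contains the core, was present in 5 of 42 (11.9%) against 0.974% of all promoters and 1.68% of those of tested genes, and the full CLEAR palindrome, which extends it by a base at each end, was present in 0 of 42 against 0.326% and 0.623%. By gene, 11 of 35 members held a core (31.4%), 4 of them among the 11 pump subunits with a promoter. Of all genes with a promoter 8.09% held one, and of the tested genes with a promoter 11.3%.

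The promoters printed are the 5 with TCACGTGA and the one with the most cores, each from 15 bases before its first core to 20 bases after the start, read 5′ to 3′ on the gene's strand, with the motifs in capitals. They lie at chr8:105566045-105566082 on the minus strand (Atp6v0d1, the d subunit that joins rotor and membrane sector), chr17:26676384-26676415 on the plus strand (Atp6v0e, a small membrane subunit), chr16:44139240-44139405 on the minus strand (Atp6v1a, the catalytic subunit), chrX:134600986-134601247 on the minus strand (Gla, alpha-galactosidase A), chr8:3500433-3500538 on the plus strand (Mcoln1, the lysosomal calcium channel) and chr8:13159085-13159180 on the plus strand (Lamp1, the abundant lysosomal membrane glycoprotein).
Atp6v0d1: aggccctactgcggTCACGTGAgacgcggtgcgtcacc
Atp6v0e: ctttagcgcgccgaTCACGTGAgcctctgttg
Atp6v1a: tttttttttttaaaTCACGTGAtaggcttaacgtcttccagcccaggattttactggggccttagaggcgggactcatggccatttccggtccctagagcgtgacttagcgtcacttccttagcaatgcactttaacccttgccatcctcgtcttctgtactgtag
Gla: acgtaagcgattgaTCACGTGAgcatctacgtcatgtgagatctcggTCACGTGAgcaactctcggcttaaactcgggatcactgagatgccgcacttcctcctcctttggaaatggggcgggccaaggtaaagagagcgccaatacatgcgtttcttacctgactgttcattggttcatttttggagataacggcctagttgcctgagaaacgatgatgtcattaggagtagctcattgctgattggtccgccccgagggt
Mcoln1: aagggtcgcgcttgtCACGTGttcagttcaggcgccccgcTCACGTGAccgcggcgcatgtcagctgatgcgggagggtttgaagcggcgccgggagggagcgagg
Lamp1: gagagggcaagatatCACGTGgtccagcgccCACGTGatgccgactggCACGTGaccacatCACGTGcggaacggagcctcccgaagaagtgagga
The 4 cores of Lamp1 began 61, 45, 28 and 15 bases before the start. The pair in Gla began 227 and 194 bases before it, and the single core of Atp6v0e began at base 4 after it. Atp6v0b, Glb1, Naglu, Gaa and Lgmn held the core without the longer form. A match is a description of these letters and not of binding.

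**Figure D1:**
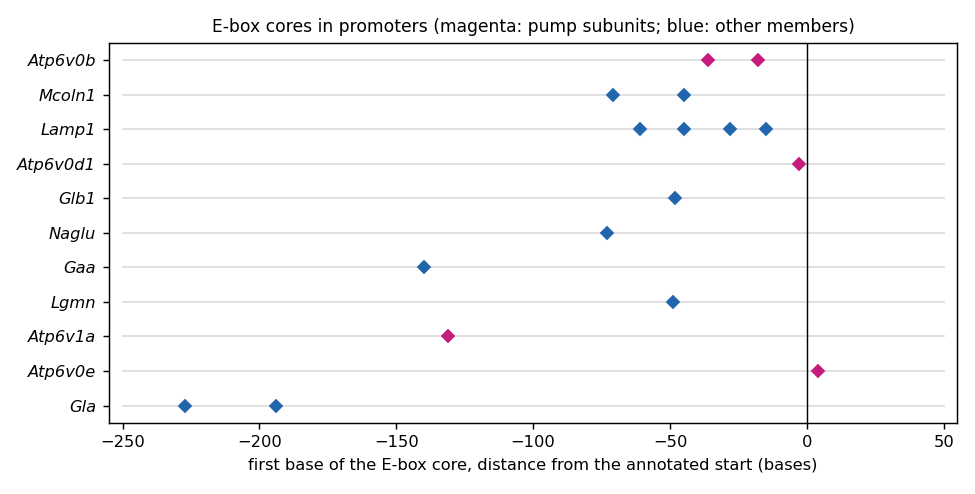
Position of each CACGTG core (diamonds) in the promoters of the 11 members that hold one, as the distance of its first base from the annotated start (x axis, bases); grey lines span the promoter window, magenta marks pump subunits and blue the other members. Cores lie between 227 bases before and 4 bases after the start, with 4 in Lamp1.

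The question of what challenge does to the proton pump was addressed by comparing ID8 with naive cells within each genotype. Pump transcripts rose in both. In WT cells, 12 of the 15 tested subunits were called higher and 0 lower, with a median log2 change of 0.55 over the 15, against a median of -0.037 over all tested genes. In Tim4KO cells 10 of 15 were called higher and 0 lower (median 0.42, all genes -0.054). A gene was called when edgeR's quasi-likelihood test, with Benjamini-Hochberg adjustment over all tested genes, gave an adjusted p under 0.05. Of all tested genes, 19.5% were called higher and 12.3% lower in WT cells, and 11.5% higher and 5.06% lower in Tim4KO cells. Among the 8194 genes whose mean count was at least that of the lowest tested member, a floor chosen after the data were seen, 41.2% were called in WT (32.2% higher, 8.99% lower) and 26.4% in Tim4KO (19.5% higher, 6.87% lower). Summed over the 16 subunits, the WT level was 2738 ± 52.9 CPM in naive and 3820 ± 322 CPM in challenged libraries, and the Tim4KO level was 2526 ± 138 CPM and 3451 ± 155 CPM (mean ± SD, n = 3 per group). No challenged library overlapped a naive one in this sum. In bulk RNA, more cells of a type and more RNA per cell cannot be told apart.

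**Figure D2:**
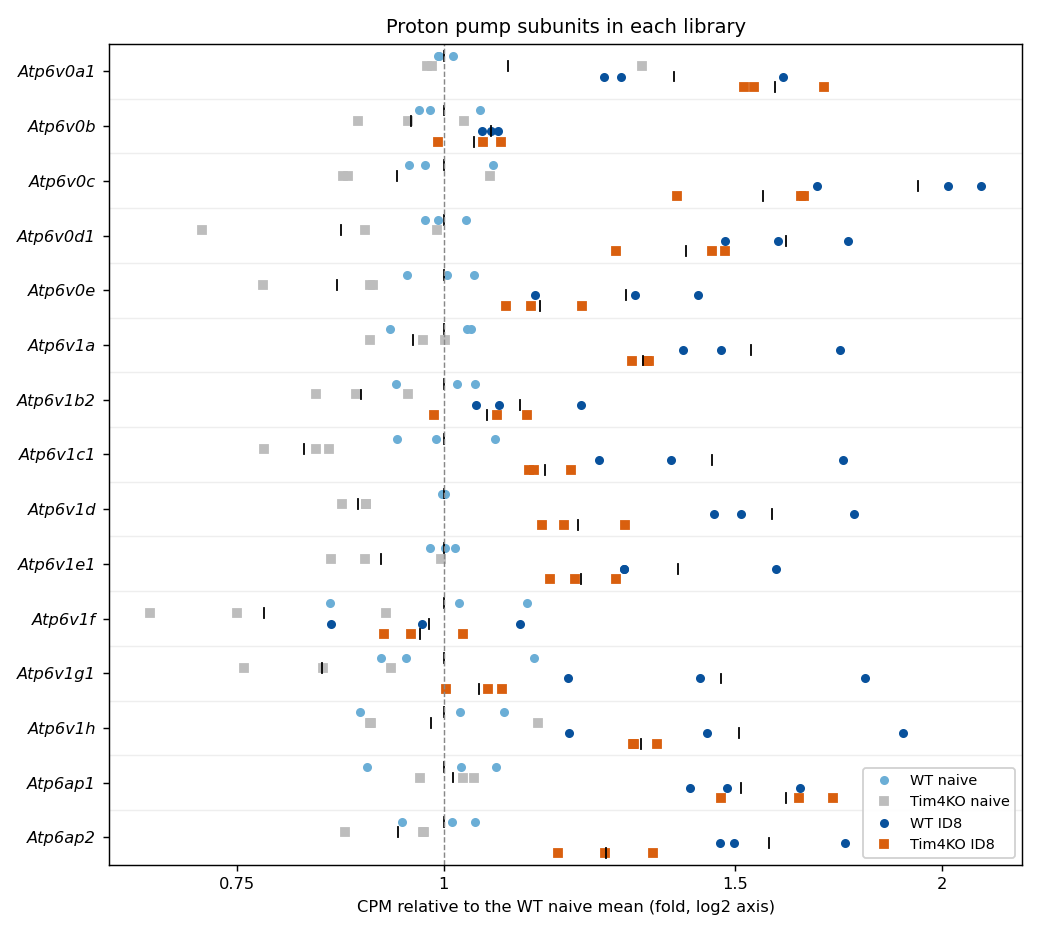
CPM of the 15 tested pump subunits in each of the 12 libraries, divided by the WT naive mean (x axis, fold on a log2 scale); circles are WT, squares Tim4KO, light shades naive and dark shades ID8, and black ticks are group means. Atp6v0c reaches the largest fold in WT ID8, and Atp6v0b, Atp6v1b2 and Atp6v1f stay close to the naive range.

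Within the membrane sector, Atp6v0c (ENSMUSG00000024121), the proteolipid that forms the rotor ring, moved furthest. It was at 162, 165 and 182 CPM in naive WT and 181, 149 and 147 CPM in naive Tim4KO libraries, and at 285, 358 and 342 CPM in challenged WT and 279, 280 and 235 CPM in challenged Tim4KO libraries. Every challenged library was above every naive one. The log2 change was 0.95 in WT (SE 0.13, edgeR adjusted p = 0.000142) and 0.73 in Tim4KO (SE 0.13, edgeR adjusted p = 0.00182).

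Atp6v0d1 (ENSMUSG00000013160) was at 91.8, 95.4 and 90.1 CPM in naive WT and 91.6, 66.0 and 82.8 CPM in naive Tim4KO libraries, and at 137, 147 and 162 CPM in challenged WT and 137, 117 and 134 CPM in challenged Tim4KO libraries, again without overlap between naive and challenged libraries. It rose by 0.68 (SE 0.13) and 0.69 (SE 0.13) on the log2 scale. Atp6v0a1, the subunit whose membrane part forms the proton path, was at 58.7, 58.8 and 59.9 CPM in naive WT and 57.8, 58.2 and 77.9 CPM in naive Tim4KO libraries, and at 75.7, 94.8 and 73.9 CPM in challenged WT and 100.3, 89.8 and 91.0 CPM in challenged Tim4KO libraries. Within each genotype its challenged libraries were above its naive ones, although Tim4KO naive 3 reached the range of WT ID8. Its log2 changes were 0.46 and 0.53. Atp6v0e was at 288, 317 and 305 CPM in naive WT and 275, 274 and 236 CPM in naive Tim4KO libraries, and at 345, 396 and 432 CPM in challenged WT and 368, 331 and 343 CPM in challenged Tim4KO libraries. All challenged libraries were above all naive ones, and the changes, 0.36 in WT and 0.41 in Tim4KO, were the smallest among the called pump subunits in WT. Atp6v0b, another ring proteolipid, lay between 223 and 272 CPM in all 12 libraries and was not called. Atp6v0d2 was at 0 to 0.951 CPM, so that d1 carried practically all d-subunit reads.

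In the catalytic sector, Atp6v1a (ENSMUSG00000052459), which binds and hydrolyses ATP, was at 251, 281 and 279 CPM in naive WT and 271, 244 and 262 CPM in naive Tim4KO libraries, and at 377, 469 and 397 CPM in challenged WT and 351, 359 and 360 CPM in challenged Tim4KO libraries. The challenged libraries were all above the naive ones, with log2 changes of 0.61 in WT (SE 0.12, edgeR adjusted p = 0.0013) and 0.46 in Tim4KO (SE 0.12, edgeR adjusted p = 0.0139). Atp6v1d, the central rotor stalk, was at 72.6, 72.4 and 72.7 CPM in naive WT and 65.2, 65.1 and 63.0 CPM in naive Tim4KO libraries, and at 106, 128 and 110 CPM in challenged WT and 93.4, 83.2 and 85.8 CPM in challenged Tim4KO libraries. The 4 groups did not overlap at all for this gene, and its changes were 0.65 and 0.44.

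Atp6v1c1, a stator subunit that takes part in joining the sectors, was at 66.7, 70.4 and 76.4 CPM in naive WT and 59.6, 55.4 and 60.7 CPM in naive Tim4KO libraries, and at 97.7, 124 and 88.3 CPM in challenged WT and 85.0, 80.7 and 80.1 CPM in challenged Tim4KO libraries. Here too no library of a group entered the range of another group, and the changes were 0.53 and 0.48. Atp6v1e1, of the peripheral stalks, was at 182, 180 and 176 CPM in naive WT and 179, 161 and 153 CPM in naive Tim4KO libraries, and at 230, 284 and 231 CPM in challenged WT and 228, 208 and 215 CPM in challenged Tim4KO libraries. Challenged libraries were above naive ones, by 0.47 and 0.40 on the log2 scale. The stalk subunit Atp6v1g1 and the regulatory subunit Atp6v1h rose in WT (0.55 and 0.59) and were not called in Tim4KO (0.31, edgeR adjusted p = 0.173, and 0.42, edgeR adjusted p = 0.0882). Atp6v1b2, the B subunit that pairs with A, and the rotor subunit Atp6v1f were called in neither genotype. Per kilobase of exonic sequence in WT naive cells, the V1 levels spread from 9.60 CPM per kb (Atp6v1h) to 142 CPM per kb (Atp6v1g1).

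Both accessory subunits rose. Atp6ap1, which is needed for assembly of the membrane sector, was at 370, 422 and 443 CPM in naive WT and 429, 398 and 423 CPM in naive Tim4KO libraries, and at 610, 676 and 580 CPM in challenged WT and 707, 605 and 675 CPM in challenged Tim4KO libraries. Atp6ap2, also known as the prorenin receptor, was at 142, 152 and 157 CPM in naive WT and 146, 131 and 146 CPM in naive Tim4KO libraries, and at 225, 263 and 221 CPM in challenged WT and 201, 176 and 188 CPM in challenged Tim4KO libraries. For each of them the challenged libraries were all above the naive ones. The log2 changes were 0.59 and 0.67 for Atp6ap1 and 0.65 and 0.41 for Atp6ap2.

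Not every pump call held under other settings. With upper-quartile scaling, which moved the median log2 change of all genes to -0.28 in WT and -0.17 in Tim4KO, 6 pump subunits were called higher in each genotype and 12 of 15 in WT and 15 of 15 in Tim4KO were above 0. A fit to the WT libraries alone called 6, and with no filter on low counts 6 of 16 were called in Tim4KO. In Tim4KO cells the count of 10 fell to 3 without Tim4KO naive 2, 4 without Tim4KO naive 3, 3 without Tim4KO ID8 1, and 5 without Tim4KO ID8 2 or without Tim4KO ID8 3, and in WT cells the count of 12 fell to 8 without WT naive 3. Atp6v0c, Atp6v0d1 and Atp6ap1 were called in both genotypes in every one of the 12 fits that left out 1 library and the 10 other settings.

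The other 25 members did not move as a block. In WT cells 8 were called higher, 3 lower and 14 not at all (median log2 change 0.16), and in Tim4KO cells 9 were higher, 3 lower and 13 not called (median 0.33). The share of the 25 that was called was 44% in WT and 48% in Tim4KO. Of genes with a mean count at least that of the lowest tested member, 41.2% and 26.4% were called. The WT share was thus close to that background. Over all 40 tested members, 23 (57.5%) were called in WT and 22 (55%) in Tim4KO, beside 31.8% and 16.6% of all tested genes. Of the called members, 18 were higher in both genotypes, 3 lower in both, 2 called in WT alone and 1 in Tim4KO alone. The same split over all tested genes was not worked out, so these shared counts have no background beside them. Libraries of naive and challenged cells did not overlap for 27 of 40 members in WT and 33 of 40 in Tim4KO, against 44.4% and 41.7% of all tested genes. In WT these were 24 higher and 3 lower members (23.6% and 20.8% of all genes), and in Tim4KO 28 higher and 5 lower (23.8% and 18%). With upper-quartile scaling the split of the member calls was 12 higher and 5 lower in WT and 15 higher and 5 lower in Tim4KO; of the calls over all genes, 33.9% were then higher in WT and 48.7% in Tim4KO, against 61.3% and 69.5% with TMM. Leaving out Tim4KO naive 2, Tim4KO naive 3, Tim4KO ID8 1 or Tim4KO ID8 2 reduced the 22 calls in Tim4KO to 12, 13, 12 and 14. A fit to the WT libraries alone reduced the 23 calls in WT to 15.

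**Figure D3:**
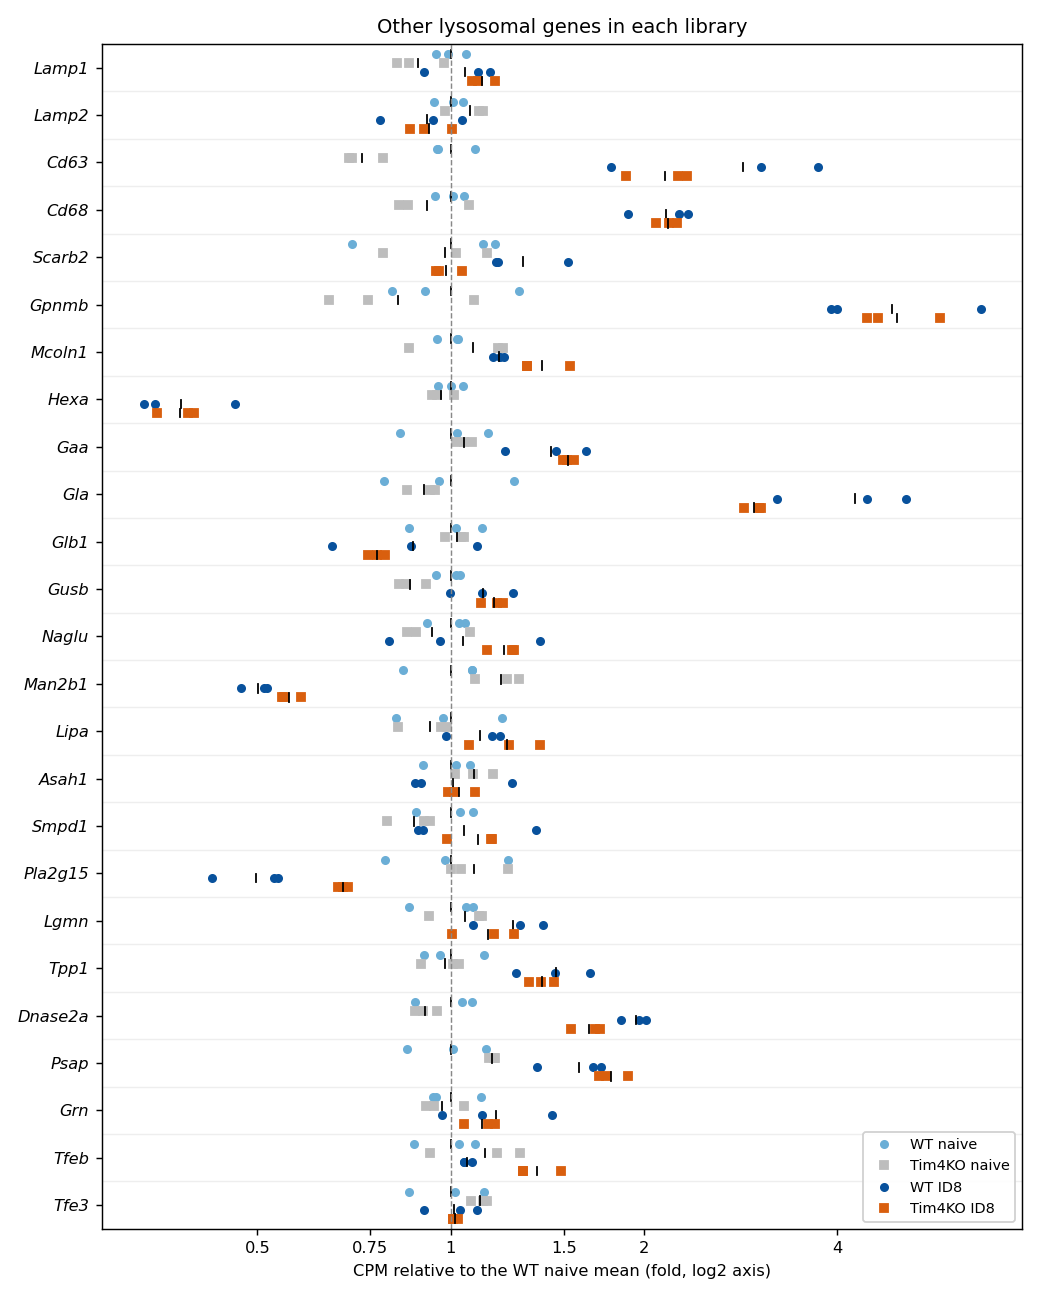
CPM of the 25 members outside the pump in each of the 12 libraries, divided by the WT naive mean (x axis, fold on a log2 scale), with symbols as in the plot of pump subunits. Gpnmb, Gla, Cd63 and Cd68 lie to the right in the challenged libraries of both genotypes, Hexa, Man2b1 and Pla2g15 lie to the left, and most other genes stay near 1.

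Among membrane proteins, 3 of 7 rose in both genotypes. Gpnmb (ENSMUSG00000029816), a transmembrane glycoprotein of lysosomes and phagosomes, was scarce in resting cells, at 3.22, 2.86 and 4.52 CPM (WT) and 2.29, 3.85 and 2.63 CPM (Tim4KO). After challenge it reached 14.1, 13.8 and 23.6 CPM (WT) and 16.3, 15.7 and 20.4 CPM (Tim4KO). That is a log2 change of 2.28 in WT (SE 0.27, edgeR adjusted p = 3.47e-05) and 2.61 in Tim4KO (SE 0.27, edgeR adjusted p = 2.91e-05), with no overlap between naive and challenged libraries.

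Cd63 (ENSMUSG00000025351), a tetraspanin of late endosomes and lysosomes, was at 122, 140 and 123 CPM in naive WT and 89.3, 101 and 90.1 CPM in naive Tim4KO libraries. Challenged libraries held 391, 479 and 228 CPM (WT) and 290, 241 and 299 CPM (Tim4KO), so WT ID8 3 was below all Tim4KO ID8 libraries while the other WT ID8 libraries were above them. The changes were 1.5 in WT (SE 0.20) and 1.57 in Tim4KO (SE 0.21). Cd68 (ENSMUSG00000018774), the macrophage member of the LAMP family, was at 643, 618 and 581 CPM in naive WT and 656, 510 and 526 CPM in naive Tim4KO libraries, and at 1161, 1438 and 1394 CPM in challenged WT and 1380, 1346 and 1284 CPM in challenged Tim4KO libraries. All challenged libraries exceeded all naive ones, with changes of 1.11 and 1.24.

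Lamp1 and Lamp2, the abundant boundary glycoproteins, were called in neither genotype. The WT level of Lamp1 was 1142 ± 61.7 CPM in naive and 1204 ± 148 CPM in challenged libraries, and its Tim4KO level 1015 ± 90.6 CPM and 1276 ± 55.1 CPM (mean ± SD, n = 3 per group). Its change was 0.071 in WT, -0.18 with upper-quartile scaling, and 0.33 in Tim4KO (edgeR adjusted p = 0.0864). Lamp2 went from 1493 ± 78.4 to 1372 ± 201 CPM in WT, a change of -0.13 that was not called. Scarb2, a membrane protein also known as LIMP-2, and Mcoln1 were not called either.

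Glycosidases moved in both directions. Gla (ENSMUSG00000031266), which removes the terminal galactose of globotriaosylceramide, was at 15.6, 9.78 and 11.9 CPM in naive WT and 11.5, 10.6 and 11.8 CPM in naive Tim4KO libraries, and at 40.0, 55.2 and 63.6 CPM in challenged WT and 37.5, 35.5 and 37.7 CPM in challenged Tim4KO libraries. The WT ID8 libraries were highest, the Tim4KO ID8 libraries formed a narrow band below them, and the naive libraries were lowest. The log2 change was 2.10 in WT (SE 0.18, edgeR adjusted p = 3.2e-06) and 1.70 in Tim4KO (SE 0.18, edgeR adjusted p = 3.92e-05). Gaa, which degrades glycogen, was at 101, 124 and 139 CPM in naive WT and 124, 128 and 131 CPM in naive Tim4KO libraries, and at 148, 177 and 197 CPM in challenged WT and 189, 184 and 182 CPM in challenged Tim4KO libraries. It rose by 0.51 and 0.53, without overlap.

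Hexa (ENSMUSG00000025232), the alpha subunit of beta-hexosaminidase, had the largest fall among the members. It was at 561, 588 and 613 CPM in naive WT and 559, 595 and 550 CPM in naive Tim4KO libraries, and at 203, 195 and 271 CPM in challenged WT and 229, 205 and 234 CPM in challenged Tim4KO libraries. The challenged libraries all lay below the naive ones, with log2 changes of -1.40 in WT (SE 0.13, edgeR adjusted p = 6.27e-06) and -1.35 in Tim4KO (SE 0.13, edgeR adjusted p = 1.77e-05).

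Man2b1 (ENSMUSG00000005142), the lysosomal alpha-mannosidase, was at 1266, 1624 and 1621 CPM in naive WT and 1639, 1923 and 1839 CPM in naive Tim4KO libraries, and at 710, 769 and 779 CPM in challenged WT and 880, 820 and 827 CPM in challenged Tim4KO libraries. It fell by 1.0 (SE 0.13) and 1.10 (SE 0.13) on the log2 scale, and no naive library entered the challenged range. Gusb, the beta-glucuronidase, was called higher in Tim4KO alone (0.43, edgeR adjusted p = 0.0193), where it lost its call in 5 of the 12 fits that left out 1 library; its WT change was 0.16, or -0.084 with upper-quartile scaling. Glb1, the acid beta-galactosidase, and Naglu, which acts on heparan sulfate, were called in neither genotype. The summed glycosidase level went from 2953 ± 304 to 1937 ± 244 CPM in WT and from 3192 ± 146 to 2024 ± 68.6 CPM in Tim4KO, with Hexa and Man2b1 as the largest terms of the naive sum.

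Of the lipid hydrolases only Pla2g15 was called. This lysosomal phospholipase was at 108, 134 and 168 CPM in naive WT and 137, 168 and 142 CPM in naive Tim4KO libraries, and at 58.2, 72.7 and 73.8 CPM in challenged WT and 94.6, 91.4 and 93.2 CPM in challenged Tim4KO libraries. Challenged libraries were below naive ones in both genotypes, and the Tim4KO ID8 libraries were all above the WT ID8 libraries. The log2 changes were -1.01 in WT (SE 0.16, edgeR adjusted p = 0.000303) and -0.68 in Tim4KO (SE 0.15, edgeR adjusted p = 0.00788); the second was lost without Tim4KO naive 2 or without Tim4KO ID8 2, with a highest edgeR adjusted p of 0.0623. Lipa, Asah1 and Smpd1, the acid lipase, ceramidase and sphingomyelinase, were not called, with log2 changes from -0.080 to 0.40 over both genotypes.

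Dnase2a (ENSMUSG00000003812), the acid nuclease that digests the DNA of engulfed cells, was at 49.4, 60.5 and 58.4 CPM in naive WT and 49.4, 53.3 and 50.7 CPM in naive Tim4KO libraries, and at 110, 103 and 113 CPM in challenged WT and 95.6, 86.4 and 94.0 CPM in challenged Tim4KO libraries. All challenged libraries were above all naive ones, and the WT ID8 libraries were above the Tim4KO ID8 libraries. The changes were 0.95 in WT (SE 0.11, edgeR adjusted p = 4.32e-05) and 0.85 in Tim4KO (SE 0.11, edgeR adjusted p = 0.000226). Tpp1, a tripeptidyl peptidase, was at 204, 216 and 253 CPM in naive WT and 202, 232 and 226 CPM in naive Tim4KO libraries, and at 284, 370 and 327 CPM in challenged WT and 326, 298 and 311 CPM in challenged Tim4KO libraries. It rose by 0.54 and 0.50, without overlap. Lgmn, the asparaginyl endopeptidase, was not called.

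Psap, the precursor of the saposins that present lipids to their hydrolases, was at 947, 1118 and 1260 CPM in naive WT and 1294, 1298 and 1270 CPM in naive Tim4KO libraries, and at 1513, 1900 and 1850 CPM in challenged WT and 2094, 1887 and 1936 CPM in challenged Tim4KO libraries. The challenged libraries were all above the naive ones, by 0.66 in WT (SE 0.13, edgeR adjusted p = 0.00202) and 0.61 in Tim4KO (SE 0.13, edgeR adjusted p = 0.00576). Grn, the precursor of the granulins, was not called.

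The transcription factors themselves showed no called change. Tfeb was at 20.3, 16.3 and 19.2 CPM in naive WT and 22.0, 23.9 and 17.2 CPM in naive Tim4KO libraries, and at 19.5, 20.1 and 19.5 CPM in challenged WT and 24.1, 27.7 and 24.1 CPM in challenged Tim4KO libraries. Tfe3 was at 75.5, 88.9 and 98.7 CPM in naive WT and 98.6, 99.8 and 94.2 CPM in naive Tim4KO libraries, and at 90.6, 96.5 and 79.6 CPM in challenged WT and 88.5, 88.4 and 90.0 CPM in challenged Tim4KO libraries. In WT the naive and challenged ranges overlapped for each of them, whereas in Tim4KO every challenged library was above the naive ones for Tfeb and below them for Tfe3. The challenge change of Tfeb was 0.080 in WT and -0.17 with upper-quartile scaling, and 0.27 in Tim4KO (edgeR adjusted p = 0.244); that of Tfe3 was 0.012 in WT, -0.23 with upper-quartile scaling, and -0.13 in Tim4KO (edgeR adjusted p = 0.497). These are mRNA levels, whereas both proteins are known to be controlled largely by moving between cytosol and nucleus, which was not measured.

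The challenge changes were set beside the E-box counts. In WT cells 5 of 11 members with CACGTG were called higher and 0 lower, with a median log2 change of 0.32, and of 24 members with a promoter and no core 12 were higher and 3 lower (median 0.41). In Tim4KO cells the counts were 5 higher of 11 (median 0.37) and 13 higher and 3 lower of 24 (median 0.41). Of all tested genes, 19.5% were called higher and 12.3% lower in WT, and 11.5% and 5.06% in Tim4KO. Of those with a mean count at least that of the lowest tested member, 32.2% were higher in WT and 19.5% in Tim4KO. The split by core was not worked out over all tested genes. The log2 changes of the 11 ran from -0.20 (Glb1) to 2.10 (Gla) in WT. Lamp1, with the most cores, was not called, and Gla, with a pair of the longer form, had the second largest increase among the members in WT.

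**Figure D4:**
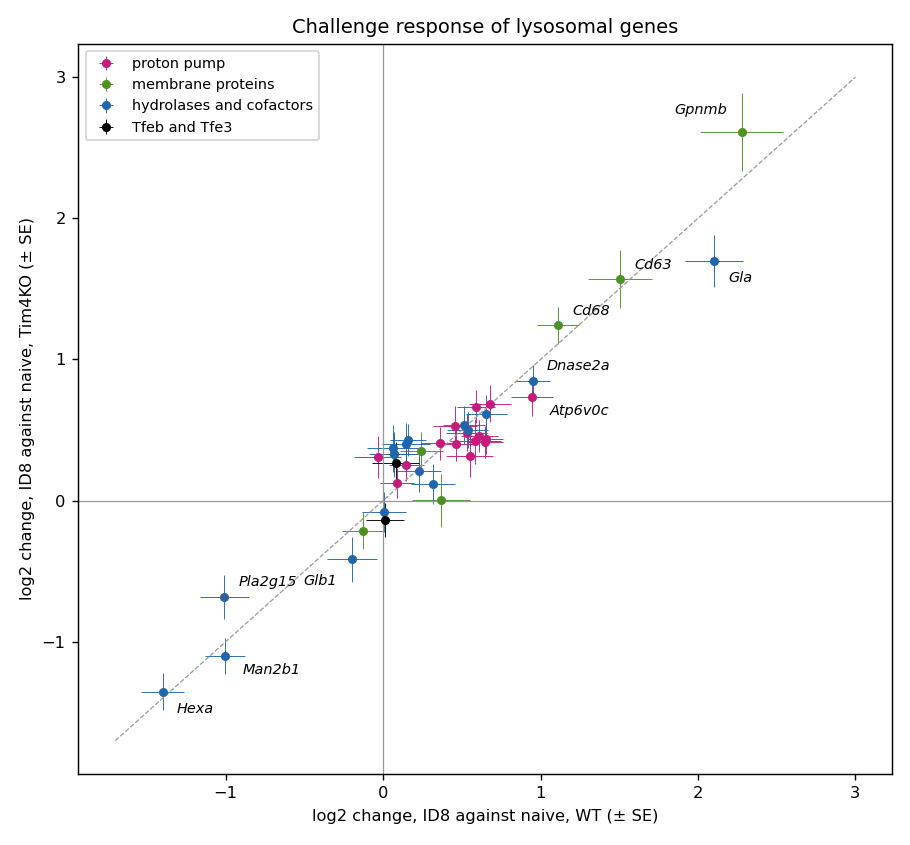
Log2 change of the 40 tested members between ID8 and naive cells in WT (x axis) and Tim4KO (y axis); bars are SE, colours mark the role, and the dashed line marks equal change. Pump subunits gather between -0.034 and 0.95 in WT and between 0.12 and 0.73 in Tim4KO, with Gpnmb, Gla, Cd63 and Cd68 above them and Hexa, Man2b1 and Pla2g15 below 0 on both axes.

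Whether the responses of the genotypes differed was tested by the interaction, the Tim4KO change minus the WT change. Of 40 members 0 were called by edgeR's quasi-likelihood test, 0 had an unadjusted p under 0.05, and DESeq2 and limma voom called 0 as well. Over all 15943 genes 0 (0%) were called by edgeR, and 1186 had an unadjusted p under 0.05. The smallest adjusted p among the members were 0.707 for Gusb (difference 0.27, SE 0.16) and Atp6v1f (0.34, SE 0.21). The difference for Gla was -0.40 (SE 0.26, edgeR adjusted p = 0.714). Members called in 1 genotype alone, such as Gusb, Atp6v1g1 and Atp6v1h, are therefore not shown to respond differently.

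Tim4 loss changed no member past the threshold. In naive cells 0 of 40 members were called by edgeR (0.0439% of all tested genes were, 0.0251% higher and 0.0188% lower). At an unadjusted edgeR p under 0.05 there were 3 members, beside 999 of all 15943 tested genes. DESeq2 and limma voom called 0 members. Pump subunits were mostly lower in Tim4KO: 13 of 15 had a negative log2 difference, with a median of -0.13 against -0.0042 for all genes. Over all tested genes 8055 of 15943 were negative. The pump sum overlapped between genotypes, at 2678 to 2776 CPM in WT naive and 2426 to 2683 CPM in Tim4KO naive libraries. The libraries of the genotypes did not overlap for 7 of 40 members, 2 higher and 5 lower in Tim4KO, where 14% of all tested genes did not (7.33% higher, 6.72% lower). Atp6v1f was at 159, 144 and 121 CPM in WT and 130, 106 and 93.9 CPM in Tim4KO (-0.36, SE 0.15, edgeR adjusted p = 0.742), with overlapping ranges. Cd63 showed the largest difference, -0.46 (SE 0.20, edgeR adjusted p = 0.778), and all 3 Tim4KO libraries lay below the WT ones. Man2b1 had the largest difference in the other direction, 0.26 (SE 0.13, edgeR adjusted p = 0.794).

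In challenged cells 0 of 40 members were called by edgeR in the genotype comparison (0.0565% of all tested genes were, 0.00627% higher and 0.0502% lower). At an unadjusted edgeR p under 0.05 there were 9 members, beside 1935 of all 15943 tested genes. DESeq2 called 2, Atp6v1d and Atp6ap2, both lower in Tim4KO, and limma voom called 0. Without WT ID8 3, edgeR called Atp6v1g1 (-0.62, adjusted p = 0.0183) and Cd63 (-0.65, adjusted p = 0.0136). Again 13 of 15 pump subunits had a negative difference, with a median of -0.19 against 0.014 for all genes. Over all tested genes 7726 of 15943 were negative. With upper-quartile scaling 10 of 15 pump subunits were negative (median -0.11). The pump sum overlapped here too, at 3582 to 4187 CPM in WT ID8 and 3305 to 3613 CPM in Tim4KO ID8 libraries. For 8 of the 15 every Tim4KO ID8 library was below every WT ID8 library, and over all tested genes 8.62% showed that pattern. Over all 40 members the genotypes did not overlap for 15, 4 higher and 11 lower, against 15.6% of all tested genes (6.98% higher, 8.62% lower). For Atp6v1d the difference was -0.39 (SE 0.11, edgeR adjusted p = 0.22), for Atp6v1g1 -0.48 (SE 0.15, edgeR adjusted p = 0.251) and for Atp6ap2 -0.32 (SE 0.11, edgeR adjusted p = 0.298). Atp6v0a1 and Atp6ap1 were the subunits with a positive difference. Outside the pump the median was 0.022, with Gla at -0.52 (SE 0.17, edgeR adjusted p = 0.284), Pla2g15 at 0.45 (SE 0.16, edgeR adjusted p = 0.296) and Tfeb at 0.36 (SE 0.15, edgeR adjusted p = 0.355). The naive and the challenged genotype comparisons share no library but come from a single fit. Subunits measured in the same libraries are not independent, so the counts of signs are a description and not a test.

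**Figure D5:**
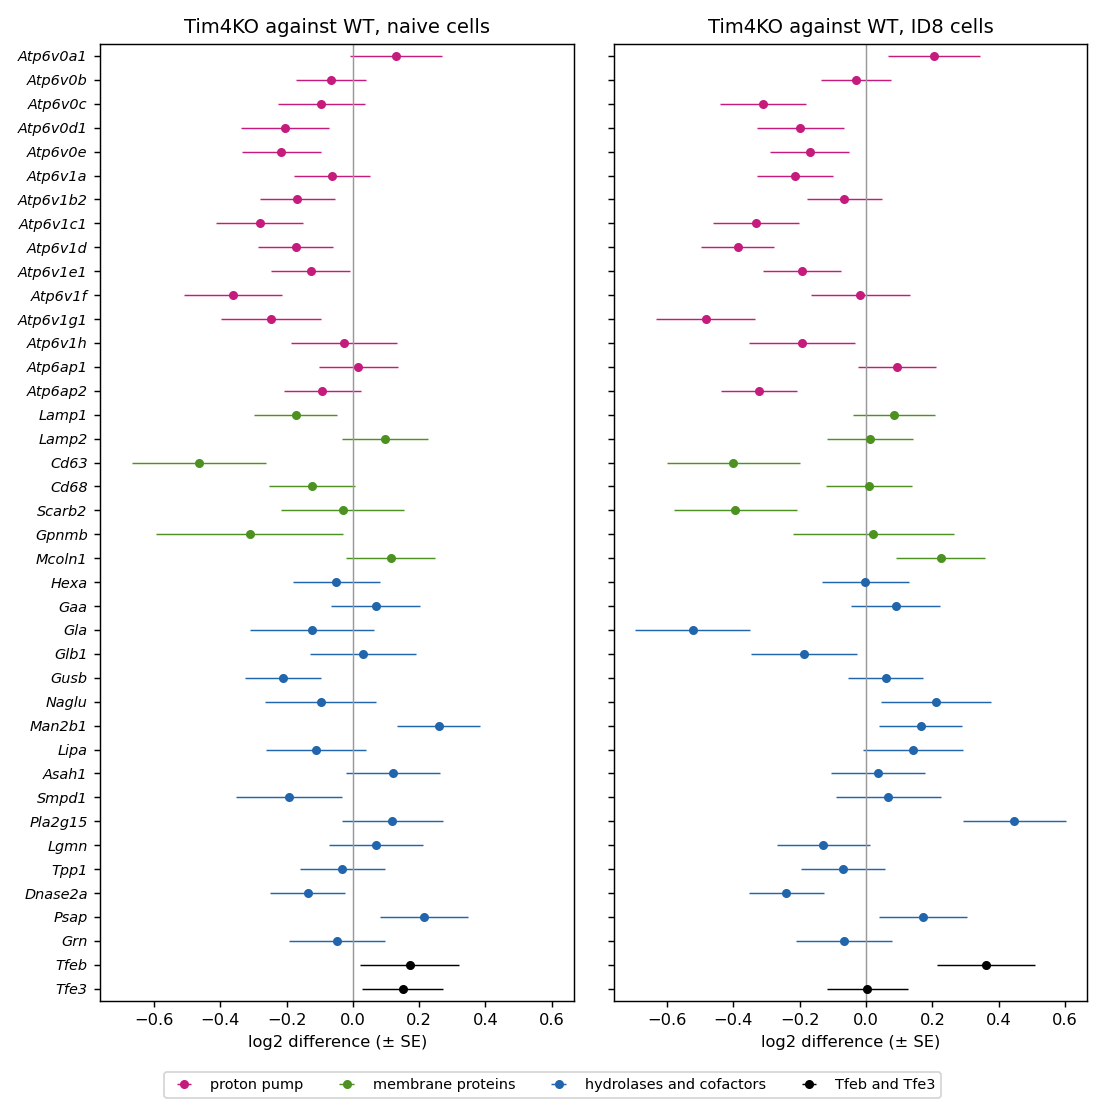
Log2 difference of Tim4KO against WT (x axis, bars are SE) for each of the 40 tested members, in naive cells (left) and ID8 cells (right), coloured by role. In both panels 13 of the 15 pump subunits lie left of 0, and the differences span -0.46 to 0.26 in naive and -0.52 to 0.45 in ID8 cells.

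The wider lysosomal system was followed in 106 related genes, of which 99 were tested. In WT cells 30 were called higher and 8 lower (38.4%), and in Tim4KO cells 20 higher and 4 lower (24.2%). Over all tested genes 31.8% and 16.6% were called, and 41.2% and 26.4% of those with a mean count at least that of the lowest tested member, so the share of related genes called lay between these backgrounds. Some related genes, such as Atp6v1b1, lie below that mean count, so here and below the second background is over an unlike set. The 5 tested alternative forms of pump subunits gave 2 higher and 2 lower in WT, and 1 higher and 0 lower in Tim4KO. Atp6v0a2 rose by 0.77 in WT and 0.63 in Tim4KO, and Tcirg1, which encodes the a3 form, by 0.95 in WT, from 54.7, 49.0 and 70.5 to 118, 99.8 and 119 CPM. Tcirg1 was not called in Tim4KO (0.28, edgeR adjusted p = 0.262). The forms called lower in WT were scarce: Atp6v1g2 went from 2.25, 2.33 and 3.54 to 1.83, 0.515 and 0.729 CPM, and Atp6v1b1 had 10, 9 and 11 counts in naive and 1, 1 and 0 counts in challenged libraries. Vma21, an assembly factor of the membrane sector, was the only gene of the 10 tested for pump assembly and regulation to be called higher, in both genotypes (0.60 and 0.62). Ncoa7, which binds the pump, was lower in Tim4KO (-0.70).

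Among 32 other hydrolases and activators, 9 were called higher and 4 lower in WT (40.6%) and 8 higher and 2 lower in Tim4KO (31.2%), beside the 41.2% and 26.4% just given. Acp5, the tartrate-resistant acid phosphatase, went from 1.18, 2.0 and 2.01 to 18.1, 36.6 and 10.1 CPM in WT and from 1.80, 1.59 and 1.29 to 14.8, 13.7 and 14.8 CPM in Tim4KO. Its log2 changes were 3.59 (SE 0.40) and 3.22 (SE 0.41), the largest increase in the related genes. Ppt1, a thioesterase, fell by 0.69 and 0.62. Of 28 other membrane proteins, 9 were higher and 1 lower in WT (35.7%) and 3 higher and 1 lower in Tim4KO (14.3%), among them the cation channel Tpcn2 (1.11 and 1.04) and Hgsnat, which acetylates heparan sulfate (-0.61 and -0.55).

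Of 9 genes that sort enzymes to the lysosome, 4 rose in WT (44.4%) and 3 in Tim4KO (33.3%), where 32.2% and 19.5% of genes past that mean count were called higher. Igf2r, the large mannose 6-phosphate receptor, was at 16.3, 20.1 and 22.9 CPM in naive WT and 14.0, 23.9 and 28.0 CPM in naive Tim4KO libraries, and at 77.3, 99.7 and 102 CPM in challenged WT and 77.0, 77.5 and 82.0 CPM in challenged Tim4KO libraries. No naive library came near the challenged range, and the log2 changes were 2.22 (SE 0.21, edgeR adjusted p = 6.68e-06) and 1.84 (SE 0.21, edgeR adjusted p = 6.64e-05). Nagpa, which uncovers the mannose 6-phosphate tag, rose by 0.52 and 0.63.

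Relatives and regulators of TFEB gave 5 genes higher and 1 lower of 15 in WT (40%) and 4 higher and 0 lower in Tim4KO (26.7%), close to the 41.2% and 26.4% of genes past that mean count. Tfec, the macrophage-enriched relative of Tfeb, was at 9.98, 10.3 and 7.09 CPM in naive WT and 8.49, 7.43 and 6.94 CPM in naive Tim4KO libraries, and at 30.5, 28.0 and 20.2 CPM in challenged WT and 14.2, 13.4 and 13.0 CPM in challenged Tim4KO libraries. It rose by 1.51 in WT (SE 0.19, edgeR adjusted p = 7.19e-05) and 0.83 in Tim4KO (SE 0.19, edgeR adjusted p = 0.00974). The Tim4KO ID8 libraries were all below the WT ID8 ones, a difference of -0.95 (SE 0.19) that did not pass the threshold (edgeR adjusted p = 0.0839), and the interaction was -0.69 (SE 0.27, edgeR adjusted p = 0.668). Lamtor5, of the complex that anchors nutrient sensing to the lysosome, rose by 0.48 and 0.50.

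Transcripts of other cell types were measured beside these changes. The 11 markers of tumour, epithelial or mesothelial cells summed to 5.72 to 25.4 CPM in naive and 1.60 to 5.60 CPM in challenged libraries, with none of the 11 at 0 in every library. The 6 neutrophil markers summed to 6.18 to 9.23 CPM in naive and 9.76 to 27.4 CPM in challenged libraries, mostly S100a8, while Ly6g, Mpo, Elane and Camp stayed under 1 CPM everywhere. The 4 monocyte markers summed to 47.7 to 92.2 CPM in naive and 29.5 to 70.3 CPM in challenged libraries, and the 10 markers of small peritoneal macrophages and dendritic cells to 138 to 248 CPM and 64.7 to 165 CPM. The 5 mast cell markers summed to 13.1 to 38.4 CPM in naive and 2.18 to 9.44 CPM in challenged libraries. The 6 B cell markers summed to 14.2 to 21.6 CPM in naive against 3.43 to 8.48 CPM in challenged WT cells, and to 8.28 to 13.2 CPM against 5.76 to 6.43 CPM in Tim4KO cells. The part of these markers, and of the macrophage markers, in the lysosomal changes was not tested. The part of the background reads, given above for each kind of library, was tested only as a covariate. With their level as a covariate, 10 pump subunits were called higher in each genotype, and over all members 16 were higher and 4 lower in WT and 19 higher and 4 lower in Tim4KO.

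The counting of strand is not stated in the labels, and exons of 7 members overlap a gene on the opposite strand (Atp6v0b, Atp6v1e1, Atp6v1h, Lamp1, Hexa, Dnase2a and Grn), with partners at 0 to 4.31 CPM. Exons of Glb1 are shared in part with Tmppe on the same strand, which was at 19.3 to 40.4 CPM. Reads of such pairs cannot be told apart.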

How the data were processed

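The authors deposited raw counts of reads per Ensembl gene for 12 libraries, 57010 genes with 1 column per library. That the values are raw was read from them, since all were whole and column sums differed. RNA came from sorted cells (RNeasy micro kit) and libraries from the SMART-Seq mRNA LP kit, per the labels' protocols. FastQC and STAR 2.5 and the builds mm10 and GRCm39 are named, with no role, per the submitters' processing notes; the counting program, annotation and strand setting are not given in the sources used here. Every column was matched by name, with 0 left over. Gene names and exonic lengths came from GENCODE vM21.

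Genes were kept by filterByExpr, and a single quasi-likelihood fit over the 12 libraries, with the 4 groups as terms, was made in edgeR 4.0.16 in R 4.3.3 (TMM, robust dispersions, 8 residual degrees of freedom), with F tests of 5 comparisons, which take either direction, and Benjamini-Hochberg adjustment over the 15943 tested genes. Each SE was derived from the log2 change and its F statistic. Alternatives used DESeq2 1.42.0 and voom from limma 3.58.1, other scalings, filters and sample sets, a replicate block and a background covariate (1713 receptor genes). The procedure was tested on simulated data. No molecular identifiers were used in counting, and floors and intervals cover counting error only. Same-numbered WT naive and WT ID8 libraries deviated together (r of 0.368, 0.134 and 0.23 across genes). The main fit held no replicate term, so the WT challenge p-values and SE given here ignore any such pairing. An alternative fit with a replicate block over all 4 groups changed no member call in that comparison. Its replicate effects are shared by the 4 groups, so it may miss a pairing held by the WT libraries alone. A block within the WT libraries alone was not fitted.

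Values in every library are given, in each role list, for up to 4 called members with the smallest p, for called members with a change of at least 2-fold, and for Tfeb and Tfe3, and up to 3 called genes per related list are named. Other genes were named after their values were seen. The members and lists were chosen with earlier results of these data known. Some related genes are not reported here.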

Additional observations from a re-analysis of the deposited data

How the results depend on the processing

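Over all tested genes the naive genotype comparison called 7 genes, and 59 without a filter on low counts, 52 by DESeq2, 4 by limma voom, 2 in a fit to the compared groups and 3 with the replicate block, with 1 to 29 (29 without WT ID8 3) when single libraries were left out. The ID8 genotype comparison called 9, and 264 without a filter, 265 by DESeq2, 14 with the replicate block and 179 with the background covariate, with 1 to 997 when single libraries were left out (997 without WT ID8 3). Member calls there were 0, and 2 by DESeq2 or without WT ID8 3 (range 0 to 2). For WT challenge a fit to the compared groups gave 3102 genes and 15 members, against 5067 and 23, and leaving out single libraries gave 3362 to 7230 genes (3362 without WT naive 3) and 19 to 25 members. For Tim4KO challenge that range was 1222 to 3595 genes (1222 without Tim4KO naive 2) and 12 to 24 members. The interaction called 73 genes without a filter, 11 by DESeq2 and 2 with the background covariate, with 0 to 368 (368 without WT ID8 3) when single libraries were left out, and 0 members in each. With the replicate block the challenge comparisons kept 23 and 22 member calls. For same-numbered libraries r was 0.0172, -0.178 and 0.191 in the Tim4KO challenge. It was 0.0827, 0.164 and 0.019 in the naive genotype comparison and -0.383, 0.0156 and -0.183 in the ID8 genotype comparison. The same number was the best match for replicate 3 in the first and replicate 2 in the second of these comparisons. With 3 libraries per group, these values cannot show whether the numbers pair libraries there.

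The pump sum in WT naive was 2825 CPM without TMM factors, against 2738. The motif share was 11.9% for TCACGTGA and 0% for the full CLEAR palindrome, against 26.2% for CACGTG. No called member changed sign in any setting; in WT, 15 of 23 called members kept their call in all 22 settings, and in Tim4KO 11 of 22 did. Among the genes followed singly through the settings, the sign changes concerned uncalled genes in WT. Tfe3 changed with RLE size factors (-0.041), upper-quartile scaling (-0.23), a mean count of at least 10 (-0.045), DESeq2 (-0.044) or only the compared groups (-0.086). Tfeb changed with upper-quartile scaling (-0.17) or only the compared groups (-0.022). Lamp1 changed with upper-quartile scaling (-0.18), only the compared groups (-0.028) or the covariate (-0.064). Gusb changed with upper-quartile scaling (-0.084) or the covariate (-0.0078), and Gnptg with upper-quartile scaling (-0.042). Uncalled pump subunits not listed here changed sign too. In the main WT challenge fit 14 of 15 were above 0, and fewer were with upper-quartile scaling, as given earlier. Signs of pump subunits in the ID8 genotype comparison also changed with that scaling. With single libraries left out, Tfe3 ranged from -0.074 to 0.13, Lamp2 from -0.20 to 0.051 and Glb1 from -0.37 to 0.043. The causes were not tested.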
